A study of Physcomitrium patens with 47 samples.

Results

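A set of 30 genes of the moss Physcomitrium patens had a higher mean transcript level than wild type (WT) in both respiration knockouts at each of 3 times of day. They were chosen by their measured levels, as the 30 of 32926 genes that met 1 rule. The rule compared each knockout with WT at each time, 6 differences in all, on the scale of the group mean of log2(CPM + 1), where CPM is the usual depth-scaled unit, a gene's share of the library's counts in genes on a fixed scale. Each of the 6 differences had to be at least 0.75. Genes with 3 chromosome prefixes (Pp3c2, Pp3c25 and Pp3c27) had been left out, as had genes with a WT mean of 1000 CPM or more, genes with no group mean of at least 10 CPM, and genes whose WT mean moved by 0.5 or more between successive times. These conditions left 5545 genes, of which 30 had all 6 differences at the limit. The rule allowed up to 150 genes, so no further ranking decided who was in.

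Plants reoxidise NADH in mitochondria through a chain of complexes that passes electrons to oxygen. NDUFA5 is a subunit of complex I, where electrons from NADH enter the chain, and COX11 is an assembly factor of complex IV, where they reach oxygen. Genes that answer a loss of either complex are often studied as signs of signalling from mitochondria to the nucleus. The files and the reference table pair none of the 30 identifiers with a gene name, so no function is given for any member, and the disrupted genes themselves were not checked by name.

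The groups were WT, COX11 KO (lines 150 and 152) and NDUFA5 KO (lines 46 and 48), each line carrying an antibiotic resistance cassette in the named gene and WT carrying none. Protonema, the filamentous stage, and young gametophores, the leafy shoots, were grown together in closed boxes, with 12 h of light a day. They were frozen at dawn (zeitgeber time 0, ZT0) or after 2 or 6 h of light (ZT2 and ZT6). ZT0 boxes had been kept in foil through the night. WT had 6, 4 and 8 libraries at ZT0, ZT2 and ZT6, COX11 KO had 5 at each time, and NDUFA5 KO had 4, 5 and 5. Libraries held between 4060158 and 10349604 counts in genes, with a median of 5659267. In such mixed tissue, fewer cells of a type and less RNA per cell cannot be told apart. The replicates are not described as separate cultures, so p-values reflect only how much these libraries varied, and that variation may be technical. In tests between groups, libraries of both lines of a knockout were taken as replicates, so only 2 lines stand behind each knockout. Sample codes begin with A or Z, a letter whose meaning the labels do not give. All WT libraries at ZT2 had A and all at ZT0 had Z.

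The values in the next paragraphs that compare a knockout with WT chose the members, so they are described and not tested. The median of the 30 differences in COX11 KO was 1.70, 1.32 and 1.45, in the order of the times. In NDUFA5 KO it was 2.05, 1.52 and 1.45. Over the 14498 genes with a group mean of at least 10 CPM, the same medians were 0.18, 0.15 and 0.18 in COX11 KO and -0.14, 0.08 and 0.12 in NDUFA5 KO. These 14498 genes, used for all shares at that level, include genes with the chromosome prefixes that the rule left out. The lowest of a member's 6 differences was most often that of COX11 KO at ZT2, in 10 members. The highest was most often that of NDUFA5 KO at ZT0, in 13 members, followed by COX11 KO at ZT0, in 8. In 17 members all 6 differences were at least 1.

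**Figure D1:**
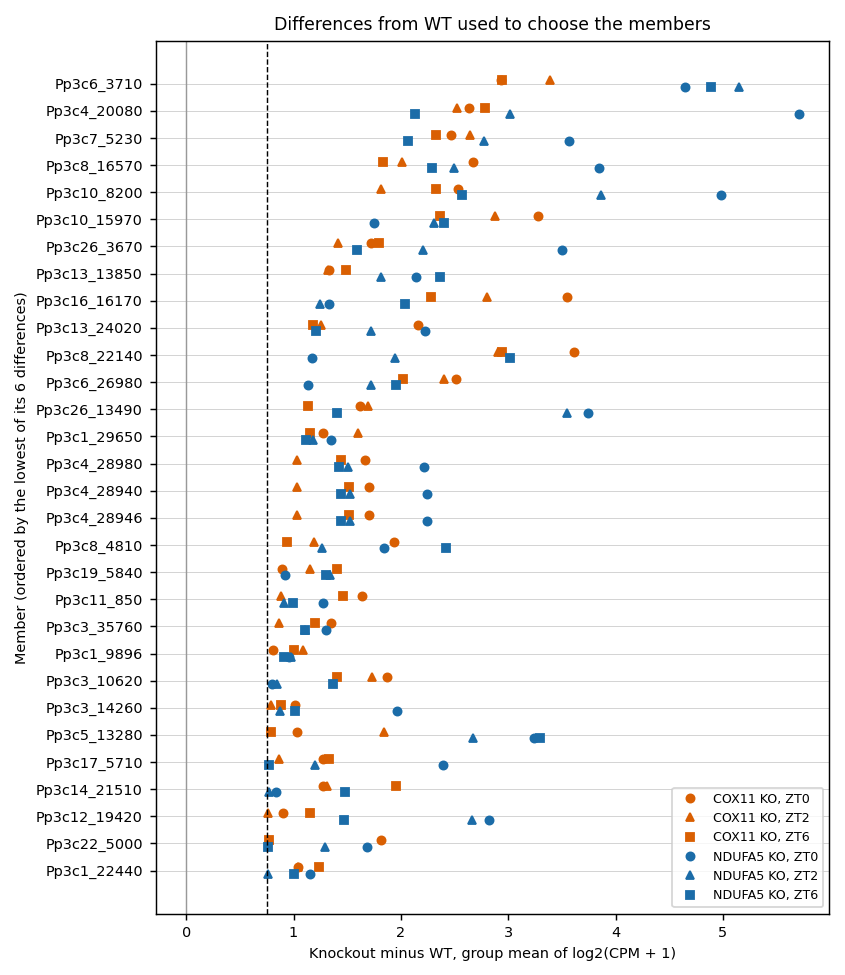
Difference between each knockout and WT in group mean log2(CPM + 1) (horizontal axis) for the 30 members (vertical axis, ordered by the lowest of their 6 differences), with the knockout as colour and the time as marker shape. Dashed line: the limit of 0.75 that chose the members. Pp3c6_3710 leads with a lowest difference of 2.93, and the points of Pp3c4_20080 reach from 2.14 to 5.71.

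A difference of group means did not always separate the libraries. Every COX11 KO library stood above every WT library of its time for 26, 26 and 24 of the 30 members at ZT0, ZT2 and ZT6. The shares of genes at 10 CPM or more that did so were 15.5%, 24% and 21%. For NDUFA5 KO the counts were 24, 26 and 21 members, and the shares 18.3%, 20.2% and 13.9%. In all 6 comparisons at once this held for 12 of the 30 members, and for 2.06% of the genes at that level. The rule used these contrasts, so nothing is read from the shares. The word "always" thus holds for the 30 members by group mean and for 12 of them by library.

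The members were also summed up library by library. For each library, the median over the 30 members of its log2(CPM + 1) minus the WT mean of its time was taken. It lay between 1.17 and 2.00 in the 15 COX11 KO libraries, between 1.29 and 2.16 in the 14 NDUFA5 KO libraries, and between -0.17 and 0.28 in WT. The knockout and WT libraries did not overlap. In each knockout library, 24 to 30 members stood above every WT library of the same time, as did 25.2% to 49.4% of the 14498 genes. The rule used these contrasts too. Differences within 1 code letter use the libraries that chose the members, so their counts are a description. All COX11 KO and WT libraries at ZT0 had code Z. In NDUFA5 KO at ZT0, 28 members reached 0.75 within Z. At ZT2, within A, 29 did in COX11 KO and 28 in NDUFA5 KO. At ZT6, they were 29 and 30 within Z. Within A at ZT6, where each knockout had 1 library and WT 2, they were 26 and 28, and the lowest value was -2.41, for Pp3c5_13280 in COX11 KO.

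**Figure D2:**
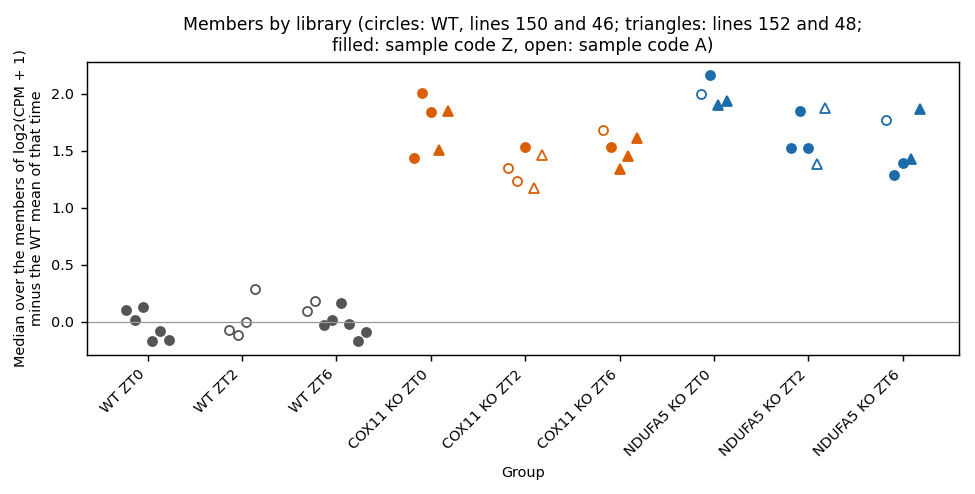
Median over the 30 members of log2(CPM + 1) minus the WT mean of the same time (vertical axis), for each of the 47 libraries by group (horizontal axis). Circles are WT and lines 150 and 46, triangles lines 152 and 48, filled symbols code Z and open symbols code A. Knockout libraries lie from 1.17 to 2.16 and WT libraries from -0.17 to 0.28.

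Most members were scarce in WT. The mean over all WT libraries was under 10 CPM in 21 members and under 2 CPM in 10, and it was 50 CPM or more in 4. The median was 4.22 CPM, against 23.2 CPM over the 14498 genes at the level minimum. The added 1 CPM shrinks the differences of such low genes, so ratios of mean CPM are also given below.

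Pp3c6_3710 had the highest minimum of the 6 differences. In WT it had 0, 1.68 and 3.11 CPM as lowest, median and highest at ZT0 (6 libraries), 0.745, 1.04 and 1.88 at ZT2 (4), and 0.174, 0.868 and 3.87 at ZT6 (8). At ZT0 the COX11 KO libraries had 17.2, 26.7, 9.2, 27.6 and 11.9 CPM, with 43.4, 26.1, 17.3, 17.6 and 12.7 at ZT2 and 15.7, 14.6, 7.75, 12.2 and 19.8 at ZT6. At ZT0 the NDUFA5 KO libraries had 44.0, 64.7, 74.9 and 54.2 CPM, with 55.8, 164, 69.5, 35.7 and 103 at ZT2 and 61.7, 40.7, 53.9, 45.4 and 78.3 at ZT6. All 29 knockout libraries lay above all WT libraries, and at ZT0 and ZT6 every NDUFA5 KO library lay above every COX11 KO library. The ratio of mean CPM to WT was 11.2, 20.0 and 12.9 in COX11 KO and 36.1, 72.9 and 51.5 in NDUFA5 KO, in the order of the times.

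Pp3c4_20080 came next, with a lowest difference of 2.14. Its WT libraries ranged from 1.33 to 3.88 CPM at ZT0 (median 1.73), from 0.515 to 2.25 at ZT2 (median 1.69) and from 0.794 to 2.78 at ZT6 (median 1.19). The COX11 KO libraries had 21.4, 26.3, 19.2, 7.27 and 25.6 CPM at ZT0, then 15.8, 12.0, 13.3, 12.0 and 12.0 (ZT2) and 15.4, 12.3, 15.3, 17.4 and 15.0 (ZT6). The NDUFA5 KO libraries had 78.7, 124, 305 and 229 CPM at ZT0, then 14.6, 34.2, 16.7, 13.6 and 19.7 (ZT2) and 12.3, 8.95, 6.54, 10.9 and 8.54 (ZT6). It was highest in the 4 NDUFA5 KO libraries at the end of the night, which overlapped no other group. At ZT6 the groups met: 1 NDUFA5 KO library reached the lowest COX11 KO library, and the others lay below.

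Pp3c10_8200 had the lowest mean over all WT libraries, 0.366 CPM, and Pp3c16_16170 followed with 0.539 CPM. Pp3c10_8200 had 5.17, 8.7, 9.37, 9.45 and 10.2 CPM in COX11 KO at ZT0, then 3.57, 2.05, 6.82, 1.19 and 4.02 (ZT2) and 4.97, 1.67, 4.72, 6.29 and 9.68 (ZT6). In NDUFA5 KO it had 58.3, 54.4, 40.97 and 47.9 CPM at ZT0, then 7.88, 32.7, 11.3, 14.9 and 23.7 (ZT2) and 5.24, 5.4, 5.83, 7.53 and 5.93 (ZT6). Its WT libraries reached 1.78 CPM at ZT0, 0.596 at ZT2 and 0.775 at ZT6, and some had 0 at each time. These WT values rest on 21, 5 and 8 counts in all at the 3 times, so the ratios to WT are imprecise. The NDUFA5 KO level was near 50.4 CPM at ZT0 and within the COX11 KO range at ZT6.

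Pp3c8_22140 and Pp3c16_16170 had the opposite order of knockouts at ZT0. Pp3c8_22140 had 16.7, 22.3, 19.2, 17.7 and 22.9 CPM in COX11 KO at ZT0, then 16.3, 18.7, 12.97, 21.03 and 15.9 (ZT2) and 9.77, 12.5, 8.88, 12.4 and 18.8 (ZT6). In NDUFA5 KO it had 3.8, 3.09, 2.74 and 1.79 CPM at ZT0, then 7.71, 11.1, 11.5, 5.13 and 6.75 (ZT2) and 15.0, 14.2, 17.3, 7.74 and 11.9 (ZT6). No WT library exceeded 1.94 CPM, so the lowest NDUFA5 KO library at ZT0 was close to the highest WT value. Pp3c16_16170 had 7.64, 13.8, 16.01, 16.7 and 20.5 CPM in COX11 KO at ZT0, and 1.9, 3.19, 2.74 and 1.59 in NDUFA5 KO. At ZT6 it had 5.64 to 9.29 CPM in COX11 KO and 3.55 to 10.4 in NDUFA5 KO. In both genes the knockouts did not overlap at ZT0 or ZT2 and overlapped at ZT6.

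**Figure D3:**
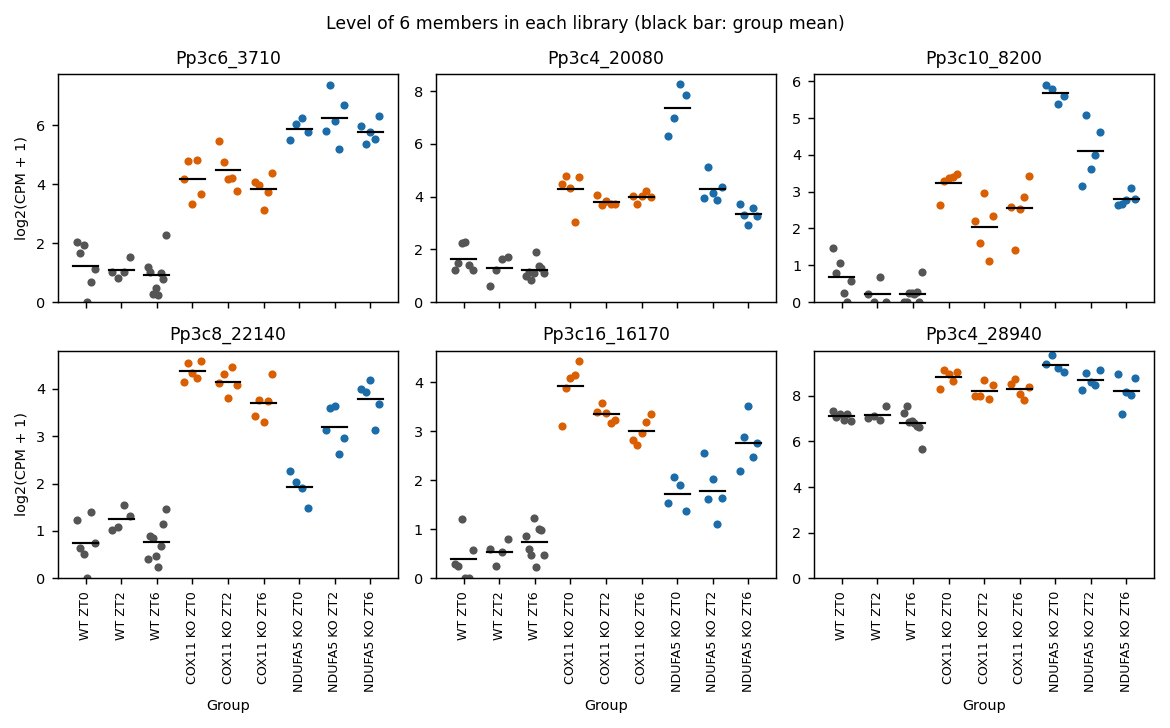
Level of 6 members, log2(CPM + 1) (vertical axis), in each library by group (horizontal axis). Points are libraries and black bars group means; colours mark WT, COX11 KO and NDUFA5 KO. Pp3c4_20080 is highest in NDUFA5 KO at ZT0, at 78.7 to 305 CPM, while Pp3c8_22140 in the same libraries has 1.79 to 3.8 CPM.

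The 6 limits of the rule were equal for both knockouts on CPM from library totals, but the tests used another main scaling. At ZT0 the median difference from WT over all genes at 10 CPM or more was 0.18 in COX11 KO and -0.14 in NDUFA5 KO. The same limit thus lay further above the typical gene in NDUFA5 KO, which can favour members lower in COX11 KO. How much it did so was not tested, and counts with library totals are given below. The level minimum could set a direction too: 6 members reached 10 CPM in 1 group only. Of these, Pp3c7_5230, Pp3c26_3670 and Pp3c17_5710 did so in NDUFA5 KO at ZT0, Pp3c16_16170 in COX11 KO at ZT0, Pp3c14_21510 in COX11 KO at ZT6 and Pp3c8_4810 in NDUFA5 KO at ZT6. For a member that reached 10 CPM only in groups being compared, or only in 1 knockout, no p-value is given between the knockouts. Counts are also given without members that reached it only in the groups compared. The difference between the knockouts was tested across 18460 genes with edgeR's quasi-likelihood test with p-values adjusted after Benjamini and Hochberg and a false discovery rate (FDR) of 0.05 as the limit. All 30 members passed the filter on low counts. At ZT0, 18 members were lower in COX11 KO than in NDUFA5 KO, 5 were higher, and 7 did not pass. The 18 include Pp3c4_28940 and Pp3c4_28946, whose counts were identical, and Pp3c4_28980, which followed them closely. Of all genes tested, 28.4% were lower and 31.6% higher. Here and below, the genes tested include those with the chromosome prefixes left out by the rule, which could not be members. No share without such genes is given. Without the 5 members that reached 10 CPM at ZT0 in a knockout and in no other group, 14 of 25 were lower and 4 higher. The 14 still include Pp3c10_8200, which reached 10 CPM only in NDUFA5 KO, at ZT0 and ZT2. The median log2 fold change of COX11 KO over NDUFA5 KO was -0.59 over these 25 members and 0.09 over all genes. Scaling by library totals alone moved the median of all genes to 0.48, and then 12 of the 30 members were lower and 5 higher, against 15.5% and 47.9% of all genes. Of the genes called, 52.6% were higher in COX11 KO with the main scaling and 75.5% with library totals.

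The largest differences at ZT0 among members whose libraries did not overlap were in genes described above. Pp3c4_20080 was lower in COX11 KO by a log2 fold change of -3.59 (SE 0.29, edgeR adjusted p = 4.28e-14). Pp3c10_8200 followed at -2.94, but it reached 10 CPM only in NDUFA5 KO, at ZT0 and ZT2, so the value is a description. In the other direction stood Pp3c8_22140 at 2.38 (SE 0.31, edgeR adjusted p = 1.73e-08). Pp3c16_16170, with a value of 2.24, passed the level minimum only through COX11 KO at ZT0, so its difference there is a description. The other members called higher in COX11 KO were Pp3c10_15970 at 1.21, Pp3c6_26980 at 1.06 and Pp3c3_10620 at 0.80. A fit within code Z alone, which leaves out 46-1, the 1 NDUFA5 KO library of code A at ZT0, again gave 18 lower and 5 higher, and called 55% of all genes in either direction.

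At ZT2, 7 members were lower in COX11 KO and 3 higher, and 20 did not pass. The 7 include Pp3c10_8200 and Pp3c26_3670, which reached 10 CPM only in NDUFA5 KO. The 3 include Pp3c16_16170, which reached it only in COX11 KO. These calls are a description, and no count without them is given. Of all genes, 15.2% were lower and 13.6% higher. Of the genes called, 47.1% were higher with the main scaling and 62.96% with library totals. Pp3c26_13490 was lower by -2.10 (SE 0.34, edgeR adjusted p = 6.27e-06). Pp3c10_8200 had -2.42, but it reached 10 CPM only in NDUFA5 KO, at ZT0 and ZT2, so the value is a description. Pp3c3_10620 was higher by 0.91, as was Pp3c8_22140 by 0.91. Pp3c16_16170 had 1.67, but it reached 10 CPM only in COX11 KO at ZT0, so this value too is a description. Within code A (4 COX11 KO and 2 NDUFA5 KO libraries), 9 were lower and 4 higher, and 31.6% of all genes were called in either direction. Within code Z (1 and 3 libraries), 3 were lower and 0 higher, and 7.35% of all genes were called. All 10 members called over all libraries kept their direction in both. Pp3c26_13490 had -0.9997 within A and -3.25 within Z. Within Z, Pp3c10_8200 at -1.46, Pp3c16_16170 at 1.30 and Pp3c3_10620 at 0.96 did not pass.

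At ZT6, 3 members were lower in COX11 KO and 0 higher, against 8.49% and 9.91% of all genes. Without 3 members that reached 10 CPM only in knockouts at ZT6, 2 of 27 were lower. Pp3c6_3710 was lower by -2.04 (SE 0.37, edgeR adjusted p = 9.97e-05). Pp3c13_13850 was lower by -0.94 (SE 0.19, edgeR adjusted p = 0.000447). Pp3c8_4810, at -1.60, passed the level minimum only through NDUFA5 KO at ZT6, and its difference is a description. The median log2 fold change over the 27 was -0.04, and 6 of the 30 members had an unadjusted p under 0.05, as did 31.1% of all genes. Within code Z (4 libraries of each) 3 members were lower again, and 15.6% of all genes were called. Within code A (1 of each) 0 members and 0.0588% of all genes were called. Pp3c6_3710 and Pp3c13_13850 were the members lower in COX11 KO at all 3 times. The share of all genes lower at all 3 times is not given here, so nothing particular to these members is read from it. Pp3c13_13850 had 25.5 to 34.3 CPM in COX11 KO and 44.6 to 70.6 CPM in NDUFA5 KO at ZT6, with no overlap, and 7.55 to 12.97 CPM in WT.

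**Figure D4:**
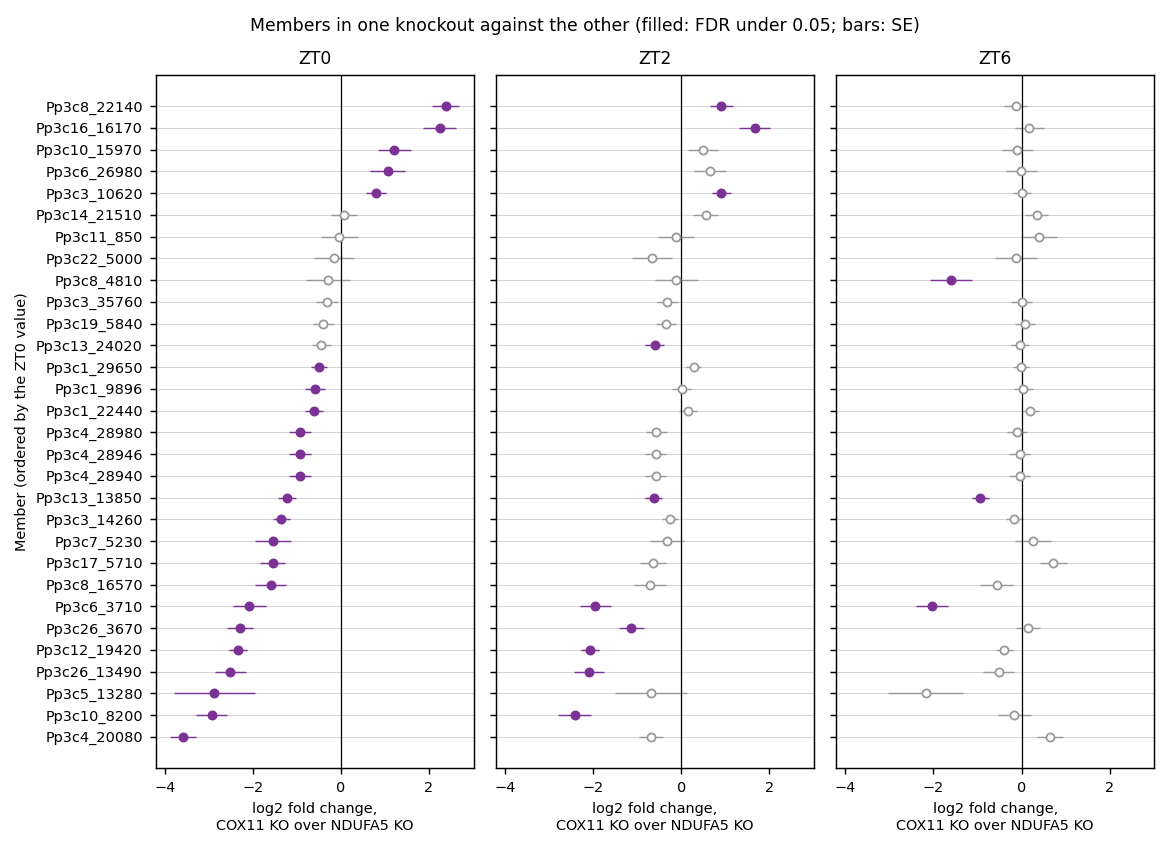
Log2 fold change of COX11 KO over NDUFA5 KO (horizontal axis, bars SE) for the 30 members (vertical axis, ordered by the ZT0 value) at ZT0, ZT2 and ZT6. Filled points passed FDR 0.05; there are 23 at ZT0, 10 at ZT2 and 3 at ZT6.

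The rule held WT nearly level from one time to the next but set no such limit for the knockouts, so their own changes with time were tested. The knockout levels at each time entered the rule through the differences from WT and through the level minimum. Members that reached 10 CPM only at the times compared are therefore again left out of a second count. In NDUFA5 KO the median difference from WT over all genes at that level was -0.14 at ZT0 and 0.08 at ZT2. The same limit thus lay further above the typical gene at ZT0, which can favour members that fall from there. How much it did so was not tested. From ZT0 to ZT2, 18 members fell and 1 rose in NDUFA5 KO, where 29.1% of all genes fell and 31.1% rose. The 18 again include Pp3c4_28940, Pp3c4_28946 and Pp3c4_28980. Without the 4 members that reached 10 CPM in NDUFA5 KO at ZT0 or ZT2 and in no other group, 14 of 26 fell and 1 rose. The 14 still include Pp3c8_16570, which reached 10 CPM only at ZT0, in both knockouts. The median log2 change was -0.64 over these 26 and 0.06 over all genes. With library totals alone it was -0.36 over the 30 members and 0.35 over all genes, with 12 members (19% of all genes) lower and 1 (43% of all genes) higher. Of the genes called, 51.7% were higher with the main scaling and 69.4% with library totals. Pp3c4_20080 fell by 3.51 on the log2 scale (SE 0.29, edgeR adjusted p = 4.82e-14). Pp3c8_16570 fell by 2.06, from 17.95 to 32.7 CPM in 4 libraries to 3.8 to 10.4 CPM in 5. As it passed the level minimum only through ZT0, its fall is a description. Pp3c8_22140 was the 1 member that rose, by 1.26 (SE 0.32, edgeR adjusted p = 0.000694). Within code A, where ZT0 is 1 library, its value was 0.28 and did not pass. Within code Z (3 libraries at each time) 13 members fell and 1 rose, and 49.4% of all genes were called in either direction. Within code A 15 fell and 0 rose, and 42.1% of all genes were called. There 18 of the 19 members called over all libraries kept their direction.

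In COX11 KO, 9 members fell and 0 rose from ZT0 to ZT2, while 23.7% of all genes fell and 22.7% rose. None of the 9 reached 10 CPM only in the groups compared, though Pp3c8_16570 reached it only at ZT0, in both knockouts. Of the 9, 3 were Pp3c4_28940, Pp3c4_28946 and Pp3c4_28980. Pp3c17_5710 fell by 0.94, from a mean of 7.41 ± 2.49 CPM (SD, n = 5) to 3.81 ± 0.37 (SD, n = 5). It reached 10 CPM only in NDUFA5 KO at ZT0, so this fall is a description. The count of 9 rests on single libraries: it was 4 without 150-1, 150-2 or 152-1 at ZT2, and 5 without 150-2 at ZT0. In these fits 22.2% to 23.1% of all genes fell. All COX11 KO libraries at ZT0 had code Z and 4 of the 5 at ZT2 had code A, so time and code letter are nearly the same split here. Within code Z, with 1 library at ZT2, 0 members passed, where 21.5% of all genes did, and all 9 kept their direction. With the letter as a covariate the fall of Pp3c17_5710 was -0.61 and did not pass.

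From ZT2 to ZT6 most members did not pass: 20 of 30 in NDUFA5 KO and 25 of 30 in COX11 KO. In NDUFA5 KO, 5 rose and 5 fell, against 24.1% and 27.2% of all genes, and 4 rose without Pp3c8_4810. Pp3c12_19420 fell by 1.26 (SE 0.19, edgeR adjusted p = 6.8e-07), from 43.8, 90.8, 54.5, 63.5 and 93.7 CPM to 32.3, 28.5, 19.6, 32.9 and 35.7 CPM. Pp3c10_8200 fell by 1.63, but it reached 10 CPM only in NDUFA5 KO at ZT0 and ZT2, so its fall is a description. Pp3c3_10620 rose by 1.01 (SE 0.22, edgeR adjusted p = 0.000149), from 4.36, 4.84, 5.22, 4.96 and 5.98 CPM to 12.0, 9.11, 10.1, 9.84 and 12.2 CPM. In none of these 3 members did the libraries of the times overlap. Within code A, 4 members rose and 3 fell, and 27.7% of all genes were called in either direction. Within code Z, 3 rose and 9 fell, and 44.8% of all genes were called. In COX11 KO, 4 rose and 1 fell, against 17.7% and 19% of all genes. Pp3c14_21510, 1 of the 4, had a change of 0.96 and reached 10 CPM only in COX11 KO at ZT6, which leaves 3 that rose. Pp3c26_3670 rose by 0.87 (SE 0.29, edgeR adjusted p = 0.0154) and Pp3c1_29650 fell by 0.62 (SE 0.17, edgeR adjusted p = 0.00389). With the letter as a covariate 3 members and 33.9% of all genes passed, and Pp3c26_3670, at 0.57, did not. Within code A, with 1 COX11 KO library at ZT6, 0 of these 5 members passed and 2 others did, as did 19.9% of all genes. Within code Z, with 1 library at ZT2, 0 members and 7.67% of all genes passed.

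The step itself differed between the knockouts for some members, by a test of the difference of steps. The higher place of the limit above the typical gene in NDUFA5 KO at ZT0 bears on the first step here too. From ZT0 to ZT2, 5 members fell further, or rose less, in NDUFA5 KO than in COX11 KO, and 1 went the other way. Of all genes, 17.5% and 18% did. Without the 6 members that reached 10 CPM only in knockouts at ZT0 or ZT2, 4 of 24 were lower and 1 higher. Pp3c4_20080 had a difference of -2.91 (SE 0.40, edgeR adjusted p = 1.87e-07). Pp3c8_22140 had 1.47 (SE 0.40, edgeR adjusted p = 0.00399). Pp3c26_3670 had -1.16, but its level minimum rested on NDUFA5 KO at ZT0, so the value is a description. With library totals alone, the median over all genes moved from 0.08 to 0.38, and 2 members (9.12% of all genes) were lower and 1 (29.7% of all genes) higher. Pp3c26_3670 then had -0.90. Of the genes called, 50.6% were higher with the main scaling and 76.5% with library totals. Within code Z, 2 were lower and 1 higher, 18.6% of all genes were called in either direction, and Pp3c8_22140 had 2.31.

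From ZT2 to ZT6, 6 members were lower in this test and 3 higher, against 10.4% and 8.64% of all genes. None of these 9 reached 10 CPM only in the groups compared. However, Pp3c10_8200, Pp3c26_3670 and Pp3c17_5710, all lower, reached it only in NDUFA5 KO. Pp3c16_16170, which was higher, reached it only in COX11 KO. The calls of these members are a description, and no count without them is given. Pp3c12_19420 had -1.68 (SE 0.28, edgeR adjusted p = 2.03e-05). Pp3c10_8200 had -2.26, but it reached 10 CPM only in NDUFA5 KO, at ZT0 and ZT2, so the value is a description. Pp3c16_16170 had 1.49, which did not pass without 46-3 at ZT6, at 1.22. That member reached 10 CPM only in COX11 KO at ZT0, so its value is also a description. Pp3c8_22140 had 1.04 (SE 0.37, edgeR adjusted p = 0.0421), which did not pass in 12 fits that each left out 1 library and without the filter on low counts. It had 2.16 within code A, where it passed, and 0.23 within code Z, where it did not. Within code A, 2 were lower and 1 higher, and 7.1% of all genes were called in either direction. Within code Z, 1 was lower and 0 higher, 4.86% of all genes were called, and Pp3c10_8200, at -1.26, Pp3c12_19420, at -1.30, and Pp3c16_16170, at 1.23, did not pass. All 9 called members kept their direction in both.

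**Figure D5:**
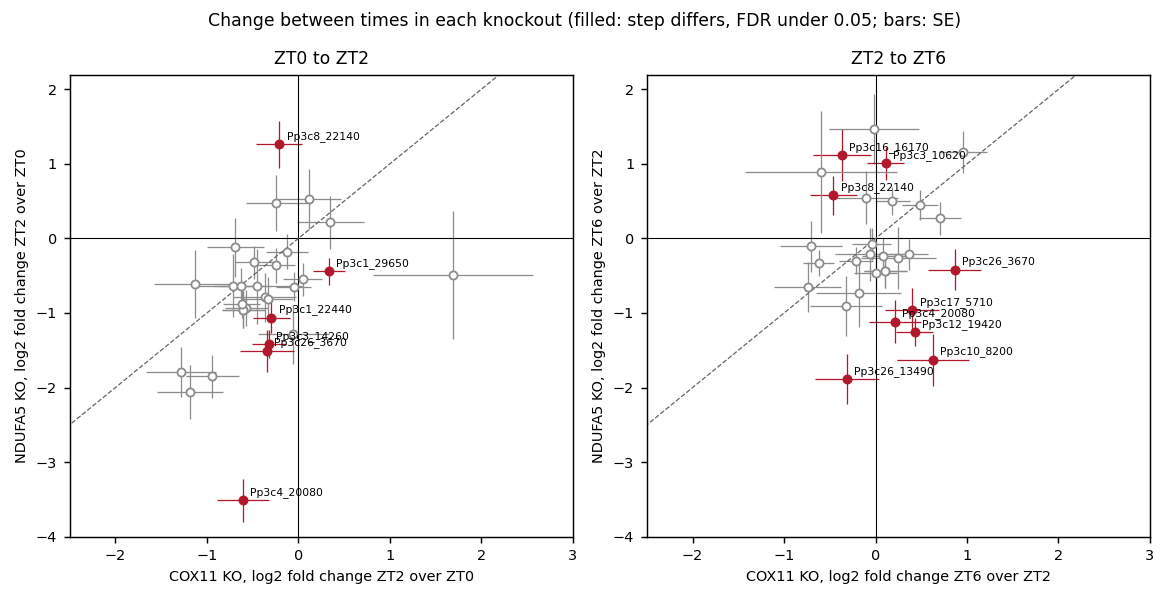
Log2 fold change between times in COX11 KO (horizontal axis) and in NDUFA5 KO (vertical axis) for the 30 members, from ZT0 to ZT2 on the left and from ZT2 to ZT6 on the right; bars are SE and the dashed line marks equal change. Filled, named points had a step that differed between the knockouts, 6 on the left and 9 on the right; Pp3c4_20080 lies lowest on the left, at -3.51 in NDUFA5 KO.

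The independent lines of each knockout were compared with the times averaged. Between lines 150 and 152 of COX11 KO, edgeR called 0 members and 0% of the genes. At an unadjusted p under 0.05 there were 0 members and 510 genes, and DESeq2 called 0 members. The members' log2 differences lay between -0.75 and 0.33. Between lines 46 and 48 of NDUFA5 KO, edgeR called 0 members and 3.03% of the genes. That share rests on single libraries: 560 genes were called in all, 67 with 46-3 at ZT6 taken as line 48, 265 without it and 110 without 48-1 at ZT2. At ZT2 all 3 libraries of line 46 had code Z and both of line 48 code A, so line and letter cannot be told apart there. Unadjusted, 6 members and 16.8% of the genes had a p under 0.05. The lowest edgeR adjusted p was 0.0663, and DESeq2 called 1 member and 862 genes. The differences lay between -0.40 and 0.79. A value that does not pass does not show that the lines act alike.

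Among themselves the members differed in how far apart their 6 differences lay. The range of the 6 was narrowest in Pp3c1_9896, at 0.28, where the ratios to WT ran from 1.85 to 2.37. Members were also scored by the mean of the 6 differences minus their range, which is high where the mean is large. The score was highest for Pp3c6_3710, at 1.77, and Pp3c7_5230, at 1.15. Pp3c7_5230 had ratios to WT of 10.4, 17.4 and 10.3 in COX11 KO and of 23.4, 20.1 and 8.31 in NDUFA5 KO. The score was lowest for Pp3c4_20080, at -0.44, and Pp3c12_19420, at -0.43. Pp3c12_19420 stood 7.07-fold and 7.10-fold above WT in NDUFA5 KO at ZT0 and ZT2, and 2.92-fold at ZT6, while COX11 KO stood 1.84-fold, 1.78-fold and 2.28-fold above WT. The NDUFA5 KO difference was the larger at every time in 9 members and the COX11 KO difference in 4.

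Pp3c5_13280, chosen for mention after its values were seen, varied widely between libraries of a group. At ZT0 the WT libraries had 4.76 to 7.66 CPM except WT 4, which had 102.7 CPM. The mean CPM ratio of COX11 KO to WT was therefore 0.998 at ZT0, although its mean difference on the log scale was 1.04. Knockout libraries ranged from 3.64 CPM (150-1 at ZT6) to 529 CPM (46-3 at ZT6), and WT libraries at ZT6 reached 87.9 CPM. It overlapped with WT in 5 of the 6 comparisons.

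The 4 members of highest WT level included Pp3c4_28940 and Pp3c4_28946, which are next to each other in number. Their counts were identical in 47 of 47 libraries, and not whole numbers in 38 of these, so they count as 1 measurement. Pp3c4_28980, a few numbers on and named after its values were seen, had 0.805 to 0.988 times their counts, with r = 0.998 over the 47 libraries. Whether these IDs share reads or overlap was not tested, and the values of each are uncertain. Pp3c4_28940 averaged 138 ± 16.7 CPM (SD, n = 6) in WT at ZT0, 458 ± 103 (SD, n = 5) in COX11 KO and 665 ± 153 (SD, n = 4) in NDUFA5 KO. At ZT6 it averaged 116 ± 40.04 (SD, n = 8), 322 ± 79.8 (SD, n = 5) and 325 ± 140.2 (SD, n = 5), and there NDUFA5 KO overlapped with WT. The IDs between them, Pp3c4_28950, Pp3c4_28960, Pp3c4_28970 and Pp3c4_28972, were no members. Their lowest differences were 0.53, 0.54, 0.50 and 0.51, so all 6 differences were above 0 there too. The first 2 were scarce in WT, with means of 0.39 and 1.94 CPM. The last 2 had nearly equal values, with WT means of 52.6 and 52.0 CPM, and may not be separate measurements.

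With the Pp3c4 IDs above included, the 30 members were scattered by ID. They carried 17 of the 24 chromosome prefixes left by the rule, with 4 members on Pp3c4 and 1 on each of 9 prefixes. Of the 36 next IDs at the level minimum that were no members, 13 (36.1%) had all 6 differences above 0, as did 20.3% of all genes at that level. The 13 include Pp3c4_28972, named above, and the 20.3% includes genes of the 3 prefixes left out. Deviations from the group means were also compared between members over the 47 libraries, as a description. With Pp3c4_28940 and Pp3c4_28946 taken once, the median r over 406 pairs was 0.09, and 5 pairs reached 0.7. Pp3c4_28940 and Pp3c3_35760 had r = 0.889, and Pp3c11_850 had 0.747 with Pp3c3_35760 and 0.701 with Pp3c22_5000. These points share library and depth.

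Just inside the limit of 0.75 were Pp3c22_5000, with a lowest difference of 0.758, and Pp3c1_22440, with 0.757. Just outside were Pp3c3_11932, with 0.745 in COX11 KO at ZT2, and Pp3c24_10130, with 0.740 in NDUFA5 KO at ZT0. Another 106 genes failed the rule only through the 3 prefixes, 45 only through the WT steps and 25 only through the level minimum.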

How the data were processed

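QuantSeq 3′ mRNA libraries of 47 samples were analysed from 1 table of estimated counts per gene, deposited by the authors with no normalization. Per the submitters' processing notes, HTSeq 2.0.2, SAMtools 1.6 and Bowtie2 2.2.5 were used. The genome build was not given in the sources used here. By a tolerance of 1e-06, 2.35% of values were not whole, in 2085 genes, 5 of them members. The tests had been planned for raw counts, and the values were rounded first. The table has 10 further columns of values that match no sample used here and were not used. The 5 summary lines, 26.2% to 39.9% of a library's counts, were left out.

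The members and lists were chosen with earlier results of these data known. CPM used library totals. Tests used edgeR 4.0.16 (limma 3.58.1, R 4.3.3) with TMM, filterByExpr over the 9 groups, 1 mean per group and a shared dispersion over 47 libraries (common biological coefficient of variation 21.8%), after a check on simulated data. Lines were compared with 1 mean per line and time. Library 46-3 at ZT6 was taken as line 46, from its title, although its characteristics say 48. Chi-square per gene was 2.44 to 69.4 over 105 pairs of libraries within groups, so none was treated as a copy.

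Members were named by rule: the highest minima, those next to the limit, the highest and lowest WT levels, the highest and lowest mean difference minus range, runs of neighbouring IDs, and up to 2 per direction in each tested comparison, with libraries that did not overlap where groups were compared. Others are named as examples. Alternatives were library totals, DESeq2 1.42.0 and its size factors, no filter on low counts, the code letter, the replicate number as a block, the other reading of 46-3 and each knockout library left out. Fits within each code letter, and counts without members that reached 10 CPM only in the groups compared, were added after seeing the data.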

Additional observations from a re-analysis of the deposited data

Results flagged for a closer look

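The search covered 162 groups of 4 to 8 libraries, over 18 measurements of named members (the identical pair taken once) and the 9 groups. Of these, 10 held a library far from the others. Chance gives about 1 in 20 groups if values are normally distributed, so the number flagged is near that rate. The rate is rough for groups with few counts. In WT these were Pp3c4_20080 in WT 5 at ZT6 with 2.78 CPM, Pp3c10_8200 in WT 8 at ZT6 with 0.775 CPM, and Pp3c6_3710 in WT 8 at ZT6 with 3.87 CPM. Pp3c17_5710 had 5.58 CPM in WT 6 at ZT0 and, on the low side, 1.30 CPM in WT 2 at ZT2. In COX11 KO they were Pp3c14_21510 with 13.8 CPM and, on the low side, Pp3c8_16570 with 2.30 CPM, both in 150-2 at ZT6. Pp3c22_5000 had 23.9 CPM in 152-2 at ZT2, and Pp3c7_5230 had 9.88 CPM in 152-3 at ZT6. In NDUFA5 KO it was Pp3c14_21510 in 48-1 at ZT6, with 18 CPM.

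The change with time differed between the knockouts in 15 tests of members, given as the NDUFA5 KO step minus the COX11 KO step in log2. From ZT0 to ZT2 it was -2.91 for Pp3c4_20080, -1.16 for Pp3c26_3670 (which reached 10 CPM only in NDUFA5 KO at ZT0), 1.47 for Pp3c8_22140, -0.78 for Pp3c1_29650, -1.10 for Pp3c3_14260 and -0.77 for Pp3c1_22440. From ZT2 to ZT6 it was -1.33 for Pp3c4_20080, -2.26 for Pp3c10_8200, -1.28 for Pp3c26_3670, 1.49 for Pp3c16_16170 and 1.04 for Pp3c8_22140. Pp3c10_8200 reached 10 CPM only in NDUFA5 KO at ZT0 and ZT2, and Pp3c16_16170 only in COX11 KO at ZT0. The step difference was -1.58 for Pp3c26_13490, 0.90 for Pp3c3_10620, -1.36 for Pp3c17_5710 and -1.68 for Pp3c12_19420. Pp3c17_5710 too reached 10 CPM only in NDUFA5 KO at ZT0.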

How the results depend on the processing

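The choice of members depended on scaling: with TMM-scaled CPM 19 of the 30 were chosen again, and with a level minimum of 20 CPM 18 were. A pseudocount of 0.5 kept 26, and the log of the group mean 25. Leaving out 1 library kept 22 to 30, and 9 members were kept in every such choice. Of 538 alternative values of 27 single-member results, 501 kept direction and call, 37 kept direction and did not pass, and 0 reversed. Numbers of members called moved by over 1.5 times as follows. From ZT0 to ZT2 in COX11 KO the range was 4 to 10 without 1 library, and 0 within code Z. From ZT2 to ZT6 in COX11 KO it was 3 with the code letter, 2 within A and 0 within Z. Between knockouts, it was 3 at ZT2 within Z and 0 at ZT6 within A. For the difference of the ZT0 to ZT2 steps it was 3 with library totals and 3 within Z, and for the later steps 3 within A and 1 within Z. The within-letter fits have 1 library in some arms, which is assumed to vary like the others. For lines 46 and 48 it was 1 with DESeq2 and 0 to 1 without 1 library. With the replicate number as a block, 23 members were called between the knockouts at ZT0, and no count moved by over 1.5 times. In that fit 5805 of 18460 genes were higher in COX11 KO at ZT0 and 5258 were lower. Only 8 of 40 pairs of libraries with the same label had deviations correlated above 0.1, so the numbers were not taken to pair the samples. The highest were 0.58 for 48-1 and 0.54 for 46-3, both between ZT2 and ZT6 in NDUFA5 KO, which the main fit compared unpaired. Low WT counts limit the 10 members under 2 CPM.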
